A study of Arabidopsis thaliana with 3 samples.

Results

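The 413 regions described here are the LDL1:GFP ChIP regions on chromosome 2 whose midpoint lies from 3 Mb to below 4 Mb (TAIR10), out of 5928 regions in all. They were chosen by the measured data: the 1 Mb bin was selected on the width of its regions and because it holds an insertion of mitochondrial DNA, so number and width are given as descriptions without a test. The data came from 14-day-old Arabidopsis thaliana seedlings of ecotype Col-0, grown under long days and expressing a fusion of LDL1 and green fluorescent protein (GFP) from the LDL1 promoter (LDL1pro::LDL1:GFP). An antibody against GFP was used for the 2 ChIP libraries, and 1 input library of the same transgenic line was sequenced without precipitation. Each ChIP library pooled the DNA of several precipitations. All 3 libraries carry the transgene, so no library from plants without GFP was analysed here. The ChIP libraries are represented by a single set of region coordinates and the input by a set of intervals. Neither has a score or read count. Depth is therefore unknown, no value below has a replicate error, and the coordinates allow no test between groups.

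LDL1 is a plant relative of the animal histone demethylase LSD1, an enzyme that removes methyl groups from lysine 4 of histone H3. In Arabidopsis it is known for its part in the control of flowering time, together with its close relative LDL2. The heterochromatin beside the centromere of chromosome 2 holds a large copy of mitochondrial DNA that entered the nuclear genome, in ecotype Col-0. Such nuclear copies of organelle DNA carry the letters of mitochondrial genes for respiratory-chain subunits, ribosomal proteins and tRNAs, and short reads from the copy and from the organelle look alike.

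The bin held 400351 bp of ChIP regions, which was 40.04% of its sequence and 13.8% of all region bases, while the bin makes up 0.839% of the nuclear sequence. It ranked first of 121 bins with a region by bases and second by number of regions. The bin of chromosome 4 from 3 to 4 Mb held more regions, 471, but 24.11% of its bases. The bin of chromosome 5 from 11 to 12 Mb had 309 regions over 27.88% of its bases, and that of chromosome 3 from 13 to 14 Mb had 243 regions over 19.02%. Region width in the chromosome 2 bin ran from 173 to 33857 bp with a median of 362 bp (interquartile range 266 to 648 bp), against a median of 298 bp and a widest region of 20943 bp elsewhere. Regions wider than 1000 bp, called wide here, numbered 70 of 413 in the bin, or 16.95%, and 255 of 5515 elsewhere, or 4.62%. Over all regions the share was 5.48%, and since width chose the bin nothing is read from that difference. A high wide share and median were not particular to this bin. The chromosome 5 bin above had 60 wide regions of 309 and a median of 380 bp. The chromosome 3 bin had 47 of 243 and 401 bp, both higher than here in share and median. The chromosome 4 bin was lower, with 19 of 471 and 318 bp. The 3 narrowest wide regions measured 1002, 1003 and 1011 bp, and the 3 just below the limit measured 939, 958 and 968 bp. At the lower limit of the bin the first 3 members inside started at 3010435, 3011732 and 3024870, and the nearest 3 outside started at 2983201, 2989384 and 2997319. At the upper limit the last 3 inside started at 3983272, 3983681 and 3984745, and the next 3 outside at 4006105, 4010681 and 4019537.

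The limits of the insertion were read from the input, because no genome sequence was used here. The longest run of input intervals of at least 8 kb in the bin, joined over less than 10 kb, extended from 3238886 to 3511010, a length of 272125 bp. That stretch is called the insertion below, and the 727875 bp of the bin outside it the flanks. The gene table gave a check of the name that used neither the ChIP regions nor the input. Genes of the bin and of the mitochondrial chromosome with the same length and the same spacing formed 3 collinear runs with 21 gene pairs, and all 3 lay inside these limits. The runs covered 50.4% of the insertion, so the name rests on gene order for those stretches and was not tested for the rest. The rule that set the limits was revised after its results were seen, and the values under the earlier rule stand beside the first result below.

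Inside the insertion the ChIP regions were almost continuous, while in the flanks most were short and scattered. Of the flank regions 23 were wide, and the widest measured 10263 bp. The insertion held 98 regions over 252847 bp, or 92.92% of its length, against 315 regions over 147504 bp, or 20.27%, in the flanks. The insertion thus held 63.16% of the region bases of the bin and 8.74% of those of the whole set, in 0.228% of the nuclear sequence. Regions were not denser there by number, with 360.1 per Mb in the insertion and 432.8 per Mb in the flanks. With the limits first used, which ran unjoined from the first to the last input interval of at least 8 kb and so reached 3626550, the covered share was 75.5% over 147 regions and that of the flanks 17.6%. With intervals of at least 5 kb, also unjoined, the stretch grew to 581.2 kb, from 3045364, and its covered share was 56.2% over 237 regions. The split between insertion and flanks therefore depends on where the limits are placed. The covered share was higher inside than outside under each of these limits. Both wider stretches contain the whole insertion, so that order is not a separate result.

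**Figure D1:**
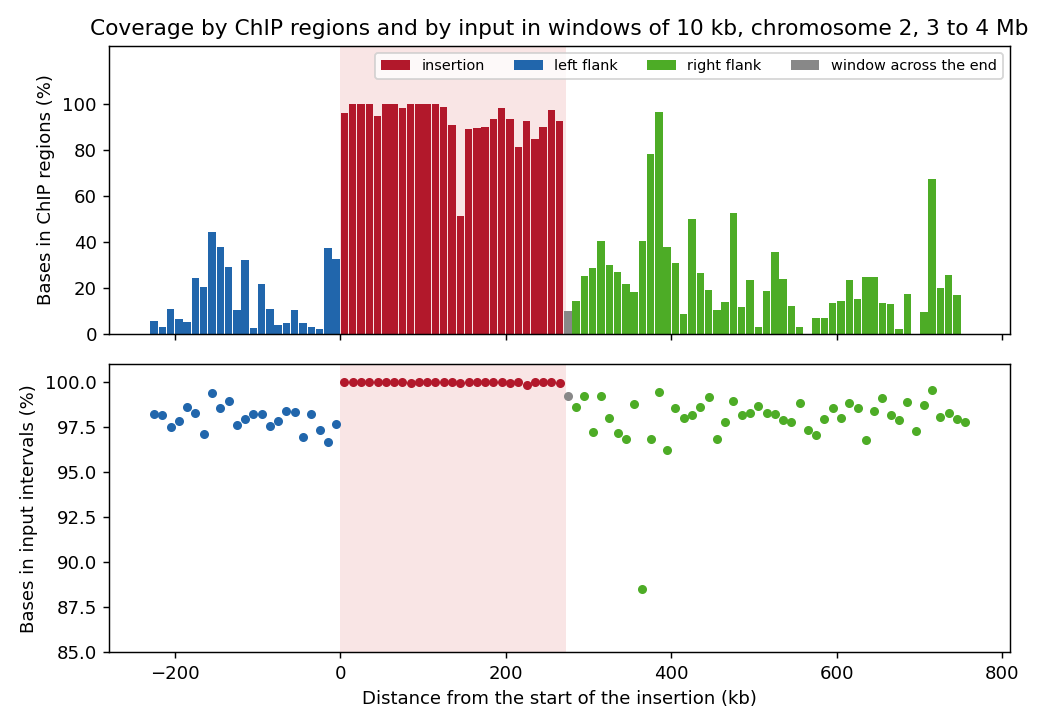
Share of bases in ChIP regions (upper panel, bars) and in input intervals (lower panel, points, axis from 85%) in consecutive windows of 10 kb, by distance from the start of the insertion, with the insertion shaded. The 27 insertion windows lie between 51.3 and 100% of bases in ChIP regions, the left-flank windows between 2.09 and 44.1%, and the right-flank windows between 0 and 96.3%.

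In windows of 10 kb the share of bases in ChIP regions had a median of 95.8% over 27 windows of the insertion, 10.5% over 23 windows of the left flank and 18.9% over 48 windows of the right flank. The lowest window of the insertion, at 51.3%, started 140 kb from its beginning. The ranges overlapped, because the right flank reached 96.3% in the window that holds most of AT2G08986. Outside the insertion the left flank had 98 regions over 15.18% of its 238.9 kb, and the right flank 217 regions over 22.75% of its 489.0 kb. The covered share of both flanks together, 20.27%, lies between those of the chromosome 4 and chromosome 3 bins given above.

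The region edges lay close to the limits taken from the input. The first region of the insertion started at 3238968, which was 82 bp after the first base of the input run, and the last ended at 3509869, which was 1141 bp before its last base. With input intervals of at least 20 kb the run was 262.5 kb long and ended at 3501345, before the end of that last region. Closeness at the right end therefore depends on the interval length chosen. The nearest region outside on the left ended at 3233856, leaving 5111 bp without a region, and the nearest on the right started at 3521764, leaving 11894 bp. Of 313 gaps between neighbouring regions within the flanks, 25 were longer than the left stretch and 4 were longer than the right one, and the longest was 25244 bp. The left stretch contains the pseudogene AT2G07744, whose nearest region was 629 bp away, and the right stretch contains most of ABCC13, which encodes an ABC transporter of subfamily C.

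Regions of the insertion were wider and closer together than those of the flanks. Their median width was 925 bp (interquartile range 506.8 to 1971 bp, range 266 to 33857 bp), against 317 bp (250.5 to 445 bp, range 173 to 10263 bp) in the flanks. Wide regions made up 47 of 98 in the insertion, or 47.96%, and held 88.68% of its region bases. In the flanks they were 23 of 315, or 7.302%, and held 31.04%. The gap to the next region had a median of 104 bp in the insertion and 756 bp in the flanks. Gaps under 100 bp were 47 of 97 in the insertion and 46 of 313 in the flanks, and gaps over 1000 bp were 3 and 132.

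**Figure D2:**
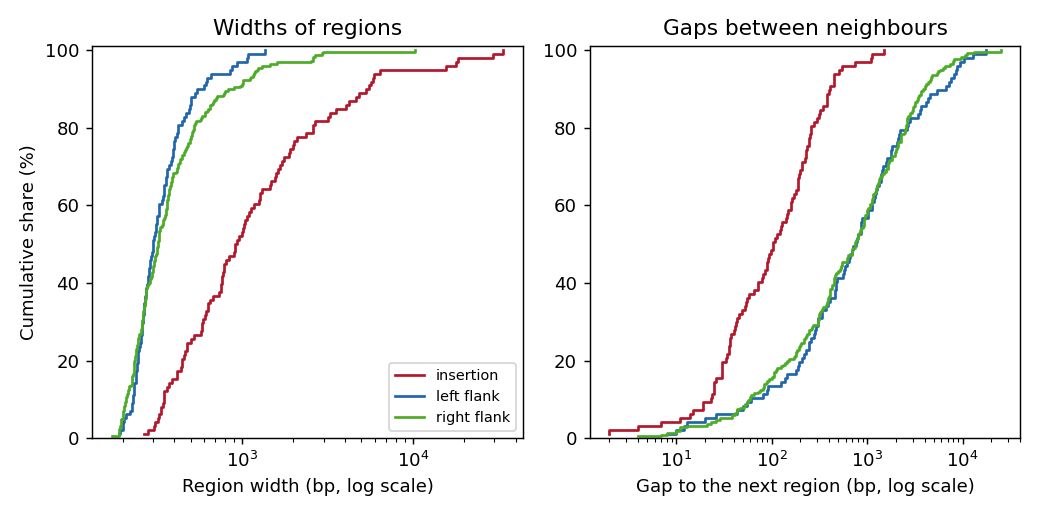
Cumulative share of regions by width (left panel) and of neighbouring pairs by gap (right panel), both on a log scale in bp, for the insertion, the left flank and the right flank. The insertion curve lies to the right for width, with a median of 925 bp, and to the left for gaps, with a median of 104 bp, while both flank curves run close together.

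Joining regions across gaps of at most 1 kb and keeping spans of at least 5 kb gave 10 blocks in the bin. The 2 longest lay in the insertion. The first ran from 3238968 to 3379146, a span of 140179 bp with 17 regions and 98.4% of bases covered, and it began 1610 bp after AT2G07744 and ended 16 bp before the pseudogene AT2G07704. The second ran from 3388530 to 3509869, a span of 121340 bp with 74 regions and 90.9% covered, and it began 370 bp after AT2G07708 and ended 4799 bp before ABCC13. The 8 blocks of the flanks spanned 5979 to 18426 bp. The longest of them ran from 3611878 to 3630303 with 6 regions and 97% covered.

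The insertion differed in its regions before and after the end of the first block. Up to 3379146 the regions numbered 12.1 per 100 kb, with a median width of 1552 bp (range 345 to 33857 bp) and 98.4% of bases covered, and 12 of 17 were wide. From there to the end they numbered 61.4 per 100 kb, with a median of 842 bp (range 266 to 6394 bp) and 87.1% covered, and 35 of 81 were wide. The widths of both stretches overlapped. The 3 longest gaps of the insertion lay close together from this boundary on, at 3379147 to 3380636 (1490 bp), 3384208 to 3385318 (1111 bp) and 3387409 to 3388529 (1121 bp). Every base of these 3 gaps was in an input interval. The boundary was placed after the values were seen, so the difference is a description.

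**Figure D3:**
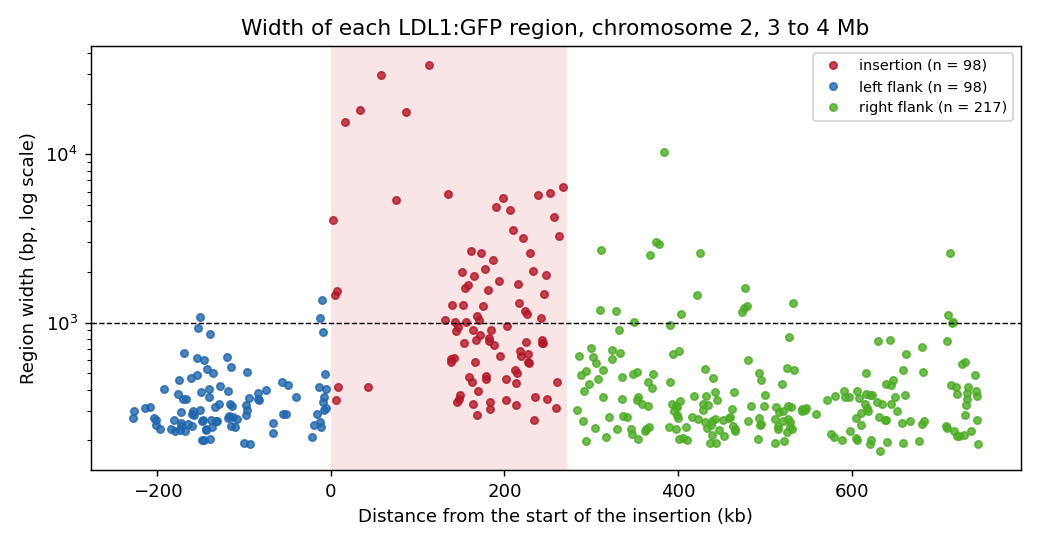
Width of each of the 413 regions (bp, log scale) by the distance of its midpoint from the start of the insertion, with the insertion shaded and a dashed line at 1000 bp. The 5 regions above 15 kb lie in the first 140.3 kb of the insertion, and the widest region of the flanks measures 10263 bp.

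The 6 widest regions held 125295 bp, or 31.3% of the region bases of the bin, and 5 of them lay in the insertion. The widest, 3334870 to 3368726 (33857 bp), overlapped 28 genes, 13 of them protein-coding, from AT2G05195 to AT2G07699. The next, 3282039 to 3311470 (29432 bp), overlapped 18 genes, 9 of them protein-coding, and covered ABCI4 over its whole 4838 bp. ABCI4 carries the name of a subunit of an ABC transporter of subfamily I. The one from 3262726 to 3281084 (18359 bp) overlapped 16 genes, among them AT2G07751 and AT2G07675, which pair in length and order with nad3 and rps12. The region from 3317018 to 3334865 (17848 bp) overlapped 10 genes, and that from 3247160 to 3262695 (15536 bp) overlapped 12. Several of these regions nearly touched: the gap between the widest and the one before it was 4 bp, and 30 bp separated the region ending at 3262695 from the next. The sixth, 3617932 to 3628194 (10263 bp), lay in the right flank and covered the protein-coding gene AT2G08986 over its whole 8403 bp.

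Nearly every annotated gene of the insertion met a region. Of 186 genes, 185 were overlapped by at least 1 bp, against 97 of 162 in the flanks. All 94 protein-coding genes of the insertion were overlapped and 65 lay wholly inside regions, against 18 of 27 overlapped and 3 wholly inside in the flanks. Over the nucleus 7.68% of protein-coding genes were overlapped. Pseudogenes were overlapped in 44 of 45 cases in the insertion and 76 of 124 in the flanks, against 21% over the nucleus. All 23 tRNA genes of the bin lay in the insertion and wholly inside regions, whereas 14.9% of nuclear tRNA genes were overlapped. These 23 were 24.7% of all overlapped tRNA genes and 3.68% of all nuclear tRNA genes. Of the other RNA genes, 24 of 24 were overlapped in the insertion and 3 of 11 in the flanks, against 5.37% over the nucleus. With 92.92% of the insertion inside regions, the counts of overlapped genes there are read beside that share and not as a separate result about genes. The same holds for the flank counts, with 20.27% of the flanks inside regions and 432.8 regions per Mb.

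The exception was AT2G07704, a pseudogene at 3379162 to 3379885 that lies wholly in the longest gap, 16 bp from the first block. Protein-coding genes with the least coverage were AT2G07707 at 27.9%, AT2G07644 at 35.3%, AT2G07708 at 38.9% and AT2G07734 at 43%. AT2G07707 and AT2G07708 lie between the 2 long blocks, and AT2G07734 spans the fourth longest gap of the insertion, 754 bp. ABCI5, at 3239693 to 3240463 near the left end, was covered over its whole length.

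The collinear runs let the coverage be read in terms of mitochondrial genes. The first run, 3268801 to 3303822, held 8 gene pairs in the same orientation as the mitochondrial chromosome and was 98.5% covered by regions. The second, 3369354 to 3462151, held 5 pairs in reversed orientation and was 87% covered. The third, 3494382 to 3503608, held 8 pairs with identical spacing and was 90.8% covered. A place below is the stretch of a run where a mitochondrial gene of the table falls, and it is not evidence that the nuclear copy is intact or expressed. The runs held 35 such places, all of which met a region, and regions covered at least 50% of the length of 34.

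The 4 places of complex I, the NADH dehydrogenase of the respiratory chain, were covered over 100% at nad3, 88.41% at nad4, 88.1% at nad5 and 92.65% at nad7. The place of cob, the cytochrome b of complex III, was covered over 79.27%, in AT2G07727. Both places of ATP synthase subunits were lower, with 65.11% at atp6, in AT2G07741, and 27.88% at atp8, in AT2G07707. Among the 4 places of cytochrome c maturation genes, which attach haem to cytochrome c, ccmC, ccmFN1 and ccmFN2 were covered over 100% and ccmFC over 86.23%. The ribosomal protein places rps12, rps14 and rpl5 were covered over 100% and rpl2 over 96.48%. The mitochondrial rps14 is annotated as a pseudogene. The place of mttB, a membrane translocase gene, was covered over 100% and that of matR, a maturase for intron splicing, over 87.92%. All 18 tRNA places were covered over 100%. They measured 71 to 88 bp, against 302 to 7983 bp for the other places, and the shares were not adjusted for length. The mitochondrial trnF copies among them are annotated as pseudogenes. Of the 17 places for protein genes, with the pseudogene rps14 counted among them, the lower ones lay in the second run and the last.

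**Figure D4:**
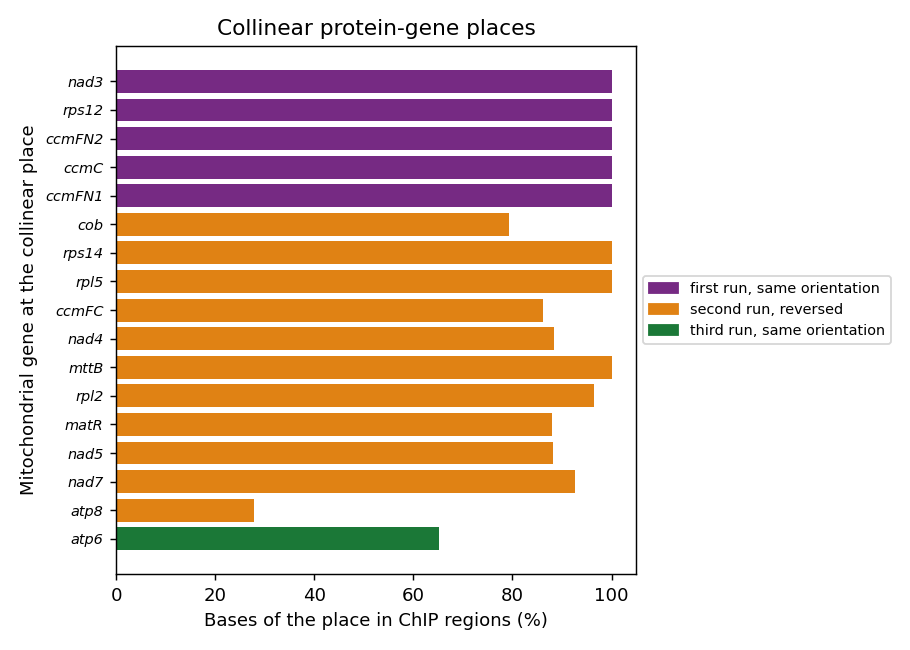
Share of bases in ChIP regions at each of the 17 places collinear with a mitochondrial protein gene or the pseudogene rps14. Places follow the order of the mitochondrial chromosome within each run and are coloured by run. The 5 places of the first run stand at 100%, and atp8 in the second run is lowest at 27.88%.

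Region midpoints fell in other annotation classes in the insertion than in the flanks, and the annotated genes differed too. The insertion held 94 protein-coding genes and 45 pseudogenes in 272.1 kb, and the flanks 27 and 124 in 727.9 kb. The classes are read beside these counts and not as a separate result about the regions. In the insertion 45 of 98 midpoints, or 45.9%, lay within 1 kb of a protein-coding gene that did not hold them. Some of these 45 lay inside another protein-coding gene. A further 23, or 23.5%, lay inside a protein-coding gene with no other within 1 kb, and 12, or 12.2%, lay inside a pseudogene. By the same rule 15 of 315 flank midpoints, or 4.76%, lay within 1 kb of a protein-coding gene. Inside one lay 19, or 6.03%, and inside a pseudogene 148, or 47%. Another 130 flank midpoints, or 41.3%, lay outside every gene body and over 1 kb from a protein-coding gene, although some of those regions overlap a gene at one end. With midpoints assigned to gene bodies first, the insertion had 25, or 25.5%, beside a protein-coding gene and 43, or 43.9%, inside one, so the order of these classes depends on that choice.

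Regions covered 9.437% of the median flank gene, and 3 of 162 flank genes were wholly covered. These were AT2G08986, its neighbour AT2G07981 and AT2G10020, all protein-coding. Among the genes at the 5 widest flank regions, the pseudogenes AT2G07789 and AT2G10280 were covered over 95.33% and 68.84%. The pseudogene AT2G07660, in the block nearest to the left end of the insertion, was covered over 84.92%. Flank genes with a symbol ranged from 0 to 24.73%. Regions held 24.73% of MCM5, a subunit of the replicative DNA helicase, and 11.35% of HA6, a plasma-membrane proton pump. They held 6.946% of PFD1, which encodes a prefoldin subunit, a co-chaperone for cytoskeletal proteins, and 3.792% of ABCC13. The microRNA genes MIR5646 and MIR8175 met no region.

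The input had reads over nearly all of the bin, and its intervals changed in length rather than in presence at the limits of the insertion. Since the limits were set from long input intervals, the lengths inside are a description of that choice. The insertion held 8 intervals (2.94 per 100 kb), against 930 in the flanks (128 per 100 kb) and 99.5 per 100 kb over the nucleus. Input covered 99.99% of the insertion, all but 26 bases in 7 gaps, against 97.98% of the flanks and 98.5% of the nucleus. The longest intervals measured 89540, 58554, 54869, 32793 and 24814 bp and were the 5 longest of the nuclear genome. The longest nuclear interval elsewhere measured 21763 bp and the longest of the flanks 8613 bp. That flank interval, at 3617938 to 3626550, lay within the 10263 bp region on AT2G08986, so the widest region and the longest input interval of the flanks fell together.

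**Figure D5:**
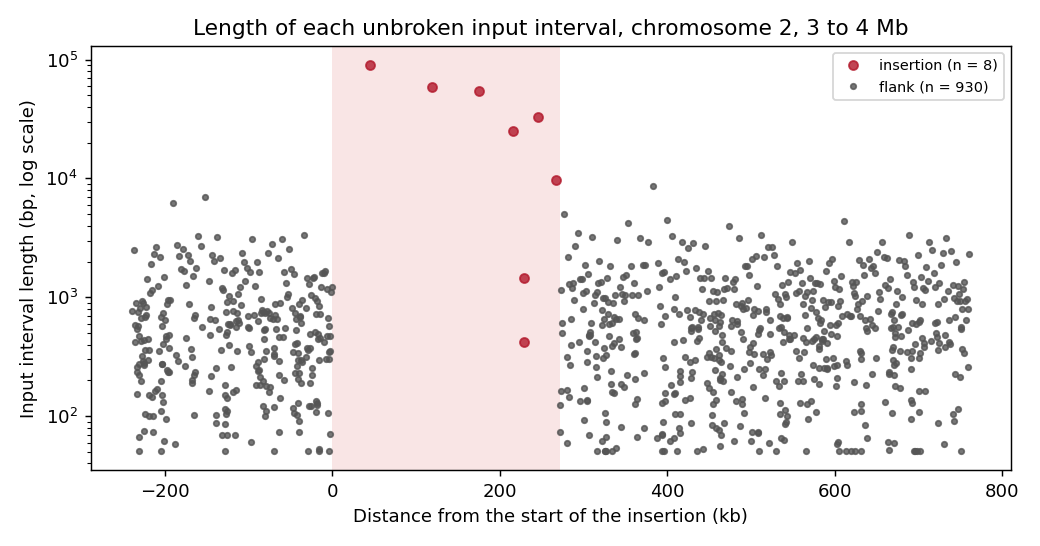
Length of each unbroken input interval (bp, log scale) by the distance of its midpoint from the start of the insertion, with the insertion shaded. The 8 intervals of the insertion include 5 between 24814 and 89540 bp, and the 930 of the flanks reach 8613 bp.

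Unbroken input intervals were also long on the mitochondrial sequence itself, with 144 intervals at 39.2 per 100 kb, 99.4% of bases covered and a longest interval of 48048 bp. The ChIP set had 0 regions on mitochondrial or chloroplast sequence. Reads from the organelle and from the nuclear insertion cannot be told apart in these files, and neither the handling of reads with several matches nor the treatment of organelle sequence in the ChIP set is given in the sources used here. An interval shows that a read was present and not how many, so the input depth of the insertion is unknown and its part in the width of the regions was not tested.

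The stretches of the insertion without a region still had input. Of its 19278 bases outside regions, 19271 lay in an input interval, and 6 of its 7 input gaps lay inside a region. These counts are read beside the 99.99% of the insertion in input intervals and the 92.92% in regions. Regions that lay wholly inside 1 input interval were 93 of 98 in the insertion, or 94.9%, and 215 of 315 in the flanks, or 68.3%, against 76.8% over all regions. Long input intervals set the limits of the insertion, so its share describes that choice and is not a separate result. The largest input gap of the bin was 1014 bp, at 3607937 to 3608950 in the right flank, and the window that holds it had the lowest input coverage, 88.52%.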

How the data were processed

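Sample titles gave the groups. The authors deposited region coordinates, as 1 set for the ChIP group and 1 for the input, without counts or scores. Per the submitters' processing notes, Bowtie, SICER and TAIR10 were used, with neither version nor role. Thresholds, pooling of the replicates and the treatment of reads with several matches were not given in the sources used here. Coordinates are 1-based. Genes came from a RefSeq table of TAIR10.1 (37899 nuclear genes, 348 in the bin).

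The members, lists and comparisons were chosen with earlier results of these data known. The planned limits of the insertion needed sequence that was not used here. Limits came instead from input intervals of at least 8 kb. A first version ran from the first to the last such interval. After its results were seen it was replaced by the longest run joined over less than 10 kb, because 1 interval of the flank, 8613 bp, had extended it. Collinear runs needed at least 5 gene pairs of equal length (at least 60 bp) with offsets stepping by at most 100 bp. That minimum, and the use of the nearest pair's offset to place genes, were also set after results were seen.

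A gene counted as overlapped from 1 bp. The rule for named genes takes genes at the 6 widest regions, at the outer edges of blocks, at collinear places and at the 5 widest flank regions. Of the genes at the widest regions and block edges only some are named. Named flank genes with a symbol, and the genes with the least coverage, were chosen after their values were seen. Interval arithmetic was tested on simulated data. Python 3.11.15, numpy 2.4.6, pandas 2.3.3 and matplotlib 3.10.9 were used.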

Additional observations from a re-analysis of the deposited data

How the results depend on the processing

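Over 21 results, 58 of 69 alternatives left the value within 1.5 times the main one and 11 moved it further. Keeping regions of at least the median width left 271 members, and a limit of 2000 bp left 31 wide regions. A gap of 5000 bp gave 21 blocks and a widest span of 270902 bp, from the first to the last region of the insertion, and a gap of 200 bp gave a widest span of 87128 bp. Gene bodies taken first put 43 insertion midpoints inside protein-coding genes and 25 beside them, in place of 23 and 45.

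The joined limits of the main result replaced the limits first used after the results of the latter were seen. The other alternatives in the next sentences were also chosen after seeing the data. The limits first used, from the first to the last input interval of at least 8 kb, gave 387.7 kb, 147 regions with a median width of 681 bp, 75.5% covered, 17.6% of the flanks covered, and 202 of 210 genes overlapped. The same rule with 5 kb gave 581.2 kb, 237 regions, a median width of 460 bp, 56.2% covered and 229 of 250 genes overlapped. Limits from collinear genes gave 92.5% covered, and joined intervals of at least 5 and 20 kb gave 92.9 and 93.2%. Runs of at least 2 pairs numbered 11 in place of 3, and runs of at least 3 pairs numbered 3. The median offset of a run gave 20.8% as the lowest covered place in place of 27.9%.

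No paired analysis was possible because the ChIP libraries share 1 set of regions, so no library was left out either. Without counts, depth limits every statement to presence of a region or a read.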
